A study of Rattus norvegicus with 21 samples.

Results

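The lowest doses of piperonyl butoxide (PBO, an insecticide synergist) and of dammar resin (DAM, a plant resin) were compared by the change each made in rat liver. For every gene the effect of PBO was the PBO 500 mg/kg group minus its PBO 0 mg/kg group, and the effect of DAM was the DAM 800 mg/kg group minus its DAM 0 mg/kg group. The difference was the PBO effect minus the DAM effect, so a positive difference means a PBO effect above the DAM effect. The comparison used 12 of the 21 arrays of the series, 3 in each of the 4 groups, chosen by the dose and study in their titles. The PBO 500 mg/kg group held male Sprague-Dawley rats dosed by mouth for 7 days, and the PBO 0 mg/kg group held rats of that strain given the methyl cellulose vehicle the same way. The DAM 800 mg/kg group held male Fischer344 rats fed for 28 days on a diet with 2% DAM, and the DAM 0 mg/kg group held rats of that strain on basal diet. RNAlater preserved the PBO livers, and liquid nitrogen the DAM livers. Ages are not given in the sources used here. Strain, route, duration, dose and preservation all changed with the compound, so their parts in any difference cannot be told apart. Each array measured total liver RNA, and in such samples fewer cells of a type and less RNA per cell cannot be told apart.

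The liver answers foreign compounds through a small set of receptors and sensors. The nuclear receptors CAR and PXR turn on cytochromes P450, esterases, conjugating enzymes and exporters. NRF2 turns on glutathione enzymes and suppliers of NADPH when electrophiles appear, the aryl hydrocarbon receptor AhR turns on Cyp1 enzymes, and PPARalpha turns on peroxisomal and mitochondrial oxidation of fatty acids. LXR and SREBP factors govern sterol export and the synthesis of fatty acids and cholesterol.

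The arrays reported 31099 probe sets on a linear signal scale with a trimmed mean of 500.2 to 500.3 on every array. Median signals were 99.5 to 114 in the PBO study and 76.0 to 86.2 in the DAM study. Arrays deviated from their group mean by a root mean square of 0.279 to 0.318 log2 units in the PBO study and 0.214 to 0.230 in the DAM study. The ratio of 3′ to 5′ signal of beta-actin, a sign of RNA quality, was 2.61 to 2.83 at PBO 500 mg/kg and 2.85 to 3.16 at PBO 0 mg/kg. It was 5.56 to 8.02 at DAM 800 mg/kg and 7.08 to 9.81 at DAM 0 mg/kg. Exact two-sided permutation tests gave p = 0.1 for the PBO pair, the smallest that 3 against 3 arrays allow, and p = 0.2 for the DAM pair. The part of RNA quality in the results was not tested.

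At the lowest doses 171 probe sets were called with both compounds, 22.3% of the PBO calls and 44.9% of the DAM calls. The difference was called for 43 probe sets. It is estimated less precisely than an effect, with a median standard error of 0.27 against 0.19 log2 units. The glutathione S-transferase Gsta3, the aldehyde dehydrogenase Aldh1a1 and the gamma-glutamyl transferase Ggt1 rose with both compounds, and Apoa4, Fabp5 and the glycolytic enzyme Pklr fell with both. The sterol exporter genes Abcg5 and Abcg8, the sulfotransferase Sult2a2 and the drug exporter Abcb1a rose with DAM, and their PBO effects did not pass the test at the probe set of highest mean. The conjugate exporter Abcc3 and the carboxylesterase Ces2c rose further with PBO, and the desaturase Scd fell further with PBO.

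All effects are on the log2(signal + 16) scale, which understates changes of genes with low signal. An effect or difference was called at an adjusted p under 0.05 in limma, with p-values adjusted over 18625 probe sets. The difference was called for 43 probe sets, 0.231% of those tested, of which 23 were positive (0.123%) and 20 negative (0.107%). Without adjustment, 1508 probe sets had a p under 0.05. The PBO effect was called for 766 probe sets (4.11%), 391 higher (2.1%) and 375 lower (2.01%). The DAM effect was called for 381 probe sets (2.05%), 225 higher (1.21%) and 156 lower (0.838%). By gene, the PBO effect was called for 522 of 10661 genes (4.9%) and the DAM effect for 273 (2.56%). Called in both effects were 171 probe sets, which are 22.3% of the PBO calls and 44.9% of the DAM calls. Of these, 110 were higher in both (0.591% of probe sets tested), 58 lower in both (0.311%) and 3 opposite in direction (0.0161%). With each array scaled to a common median, the higher and lower calls became 448 and 164 for PBO, 253 and 85 for DAM, and 124 and 26 for both. By gene, 90 were higher in both (0.844%) and 41 lower in both (0.385%). Probe sets higher with PBO had a positive DAM effect in 338 of 391 cases (86.4%), against 45.9% of all probe sets. Those higher with DAM had a positive PBO effect in 202 of 225 cases (89.8%), against 43.5% of all probe sets.

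Over all 18625 probe sets the effects of PBO and DAM had a Pearson correlation of 0.337 across probe sets, which are not independent replicates. Of the 168 probe sets called in both in the same direction, 157 had no called difference, and the median ratio of the PBO effect to the DAM effect was 1.07. A difference that was not called does not show that the effects were equal, since the median standard error of a difference was 0.27 log2 units. The DAM arrays varied less than the PBO arrays. With the spread of each study's own 6 arrays in place of the pooled spread, PBO had 269 calls and DAM 648, with 123 probe sets called in both, of which 108 were also among the 171. Single arrays moved these counts: the difference was called for 22 to 51 probe sets with 1 array left out. It fell to 22 without DAM 800 mg/kg replicate 3, to 26 without DAM 800 mg/kg replicate 2 or DAM 0 mg/kg replicate 2, and to 27 without DAM 0 mg/kg replicate 3. The DAM calls fell to 195, 203 and 236 without DAM 800 mg/kg replicates 2, 3 and 1, and to 231 and 230 without DAM 0 mg/kg replicates 2 and 1. The calls in both fell to 103 without DAM 800 mg/kg replicate 2 or replicate 3, and to 112 without DAM 0 mg/kg replicate 1.

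**Figure D1:**
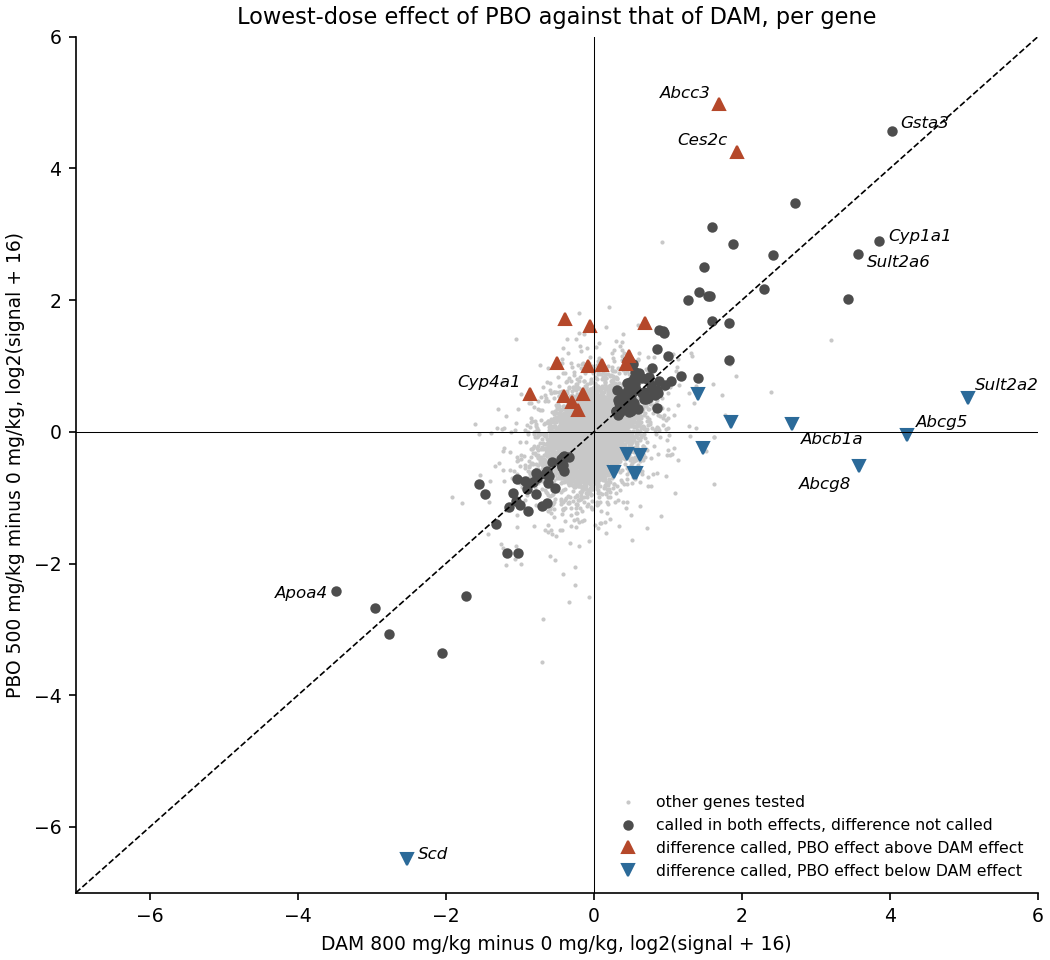
PBO effect (vertical, 500 minus 0 mg/kg) against DAM effect (horizontal, 800 minus 0 mg/kg) on the log2(signal + 16) scale for 10661 genes, each by its probe set of highest mean, with a dashed line where both are equal. Genes called in both effects lie near the line in the upper right and lower left, Abcg5, Abcg8, Sult2a2 and Abcb1a lie far to the right at PBO effects near 0, and Abcc3, Ces2c and Scd lie off the line.

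Represented by 1 probe set each, 28 genes of 10661 (0.263%) had a called difference, 15 positive (0.141%) and 13 negative (0.122%). In all 28 the PBO 500 mg/kg arrays' deviations from the PBO 0 mg/kg mean did not overlap the DAM 800 mg/kg arrays' deviations from the DAM 0 mg/kg mean. Genes with no called difference, such as Cyp2a1 and Mcm2, were separate in this way too. The share among all genes was not counted, so the separation adds no support to the calls. The 28 genes are described by kind: genes with a called DAM effect only, genes called in both in the same direction, and genes with a called PBO effect and an uncalled or opposite DAM effect.

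Abcg5 and Abcg8 rose with DAM, and Abcg5 had the smallest adjusted p of any named gene in the difference. They encode the subunits of a transporter that moves cholesterol and plant sterols from hepatocytes into bile. Abcg5 had signals of 853, 863 and 614 at PBO 500 mg/kg and 650.4, 798 and 958 at PBO 0 mg/kg. It had 2281, 1926 and 1108 at DAM 800 mg/kg and 100.2, 76.0 and 54.7 at DAM 0 mg/kg. Thus the PBO groups overlapped, while every DAM 800 mg/kg array lay above every DAM 0 mg/kg array. The Abcg5 difference was -4.28 ± 0.35 log2 units (SE, n = 3 per group, 95% interval -5.03 to -3.52, adjusted p = 4.53e-05). Its DAM effect was 4.23 ± 0.25 (adjusted p = 3.89e-07) and its PBO effect -0.04 ± 0.25 (adjusted p = 0.953).

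Abcg8 had signals of 208, 232 and 71.2 at PBO 500 mg/kg and 168, 272 and 249.8 at PBO 0 mg/kg. It had 532, 481 and 318 at DAM 800 mg/kg and 10.5, 36.6 and 22.0 at DAM 0 mg/kg. As for Abcg5, the PBO groups overlapped and the DAM groups did not. The Abcg8 difference was -4.09 ± 0.53 (adjusted p = 0.00330), with a DAM effect of 3.58 ± 0.37 (adjusted p = 1.08e-04) and a PBO effect of -0.51 ± 0.37 (adjusted p = 0.504). The undosed groups also stood apart: Abcg5 averaged 802 ± 154 at PBO 0 mg/kg and 77.0 ± 22.7 at DAM 0 mg/kg (SD, n = 3 each). The level in undosed Sprague-Dawley livers thus lay between those of the DAM 800 mg/kg group, at 1772 ± 601, and the DAM 0 mg/kg group.

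The gene pair lies head to head on chromosome 6, and the stretch between the starts, the shared promoter, is shown because the genes moved together. It comes from RefSeq (GRCr8, chr6:15717731-15717935, plus strand), with capitals marking AGATAA boxes.
Abcg5 and Abcg8: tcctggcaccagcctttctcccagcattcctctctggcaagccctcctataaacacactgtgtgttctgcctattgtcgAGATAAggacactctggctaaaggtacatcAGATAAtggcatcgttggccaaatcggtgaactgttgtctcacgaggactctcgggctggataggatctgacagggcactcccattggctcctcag
AGATAA, the motif of GATA factors, was searched on both strands and occurs 2 times here. It is held by 10.05% of the 250-base stretches before 27457 RefSeq gene starts, and by 5.79% of those of the genes tested. The match is a description of the sequence only.

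Sult2a2, a hydroxysteroid sulfotransferase that conjugates steroids and bile acids, had the largest difference of any named gene. It had signals of 56.7, 79.6 and 55.7 at PBO 500 mg/kg and 42.9, 35.9 and 39.4 at PBO 0 mg/kg. It had 1865, 1040 and 1504 at DAM 800 mg/kg and 39.9, 5.18 and 53.3 at DAM 0 mg/kg. The PBO groups did not overlap but were close, while the DAM 800 mg/kg arrays were far above those at DAM 0 mg/kg. The difference was -4.54 ± 0.52 (adjusted p = 0.00154), with a DAM effect of 5.06 ± 0.37 (adjusted p = 2.95e-06) and a PBO effect of 0.52 ± 0.37 (adjusted p = 0.489). Its paralog Sult2a6 rose with both compounds, by 2.71 ± 0.19 with PBO (adjusted p = 1.26e-06) and 3.56 ± 0.19 with DAM (adjusted p = 1.93e-07), and its difference of -0.86 ± 0.27 was not called (adjusted p = 0.374). Probe sets of such close paralogs may share signal.

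Abcb1a encodes P-glycoprotein, the canalicular exporter of many drugs. Its signals were 161, 308 and 248 at PBO 500 mg/kg and 217, 162 and 266 at PBO 0 mg/kg, and the groups overlapped. At DAM 800 mg/kg they were 1878, 1457 and 1414, and at DAM 0 mg/kg 227, 288 and 191, with no overlap. The difference was -2.55 ± 0.32 (adjusted p = 0.00330), with a DAM effect of 2.68 ± 0.23 (adjusted p = 1.85e-05) and a PBO effect of 0.12 ± 0.23 (adjusted p = 0.828). A second Abcb1a probe set gave a called difference of -1.76 ± 0.24 (adjusted p = 0.00510), and there the PBO effect was called as well.

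Fndc5, the precursor of the secreted peptide irisin known from muscle, and Ablim3, an actin-binding LIM protein, followed the same pattern with smaller differences. Fndc5 had 147, 153 and 199 at PBO 500 mg/kg and 196, 220.4 and 178 at PBO 0 mg/kg. It had 334, 263 and 337 at DAM 800 mg/kg and 100.1, 105 and 97.1 at DAM 0 mg/kg. Again the PBO groups overlapped and the DAM groups did not. The Fndc5 difference was -1.72 ± 0.25 (adjusted p = 0.00732). The Ablim3 difference was -1.71 ± 0.26 (adjusted p = 0.0120), with a DAM effect of 1.86 ± 0.19 and a PBO effect of 0.15 ± 0.19, and its call was lost without DAM 800 mg/kg replicate 3 (adjusted p = 0.0544). Blmh, the aminopeptidase bleomycin hydrolase, had a difference of -0.97 ± 0.18 (adjusted p = 0.0403) that was lost whichever of the 12 arrays was left out (adjusted p up to 0.144).

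**Figure D2:**
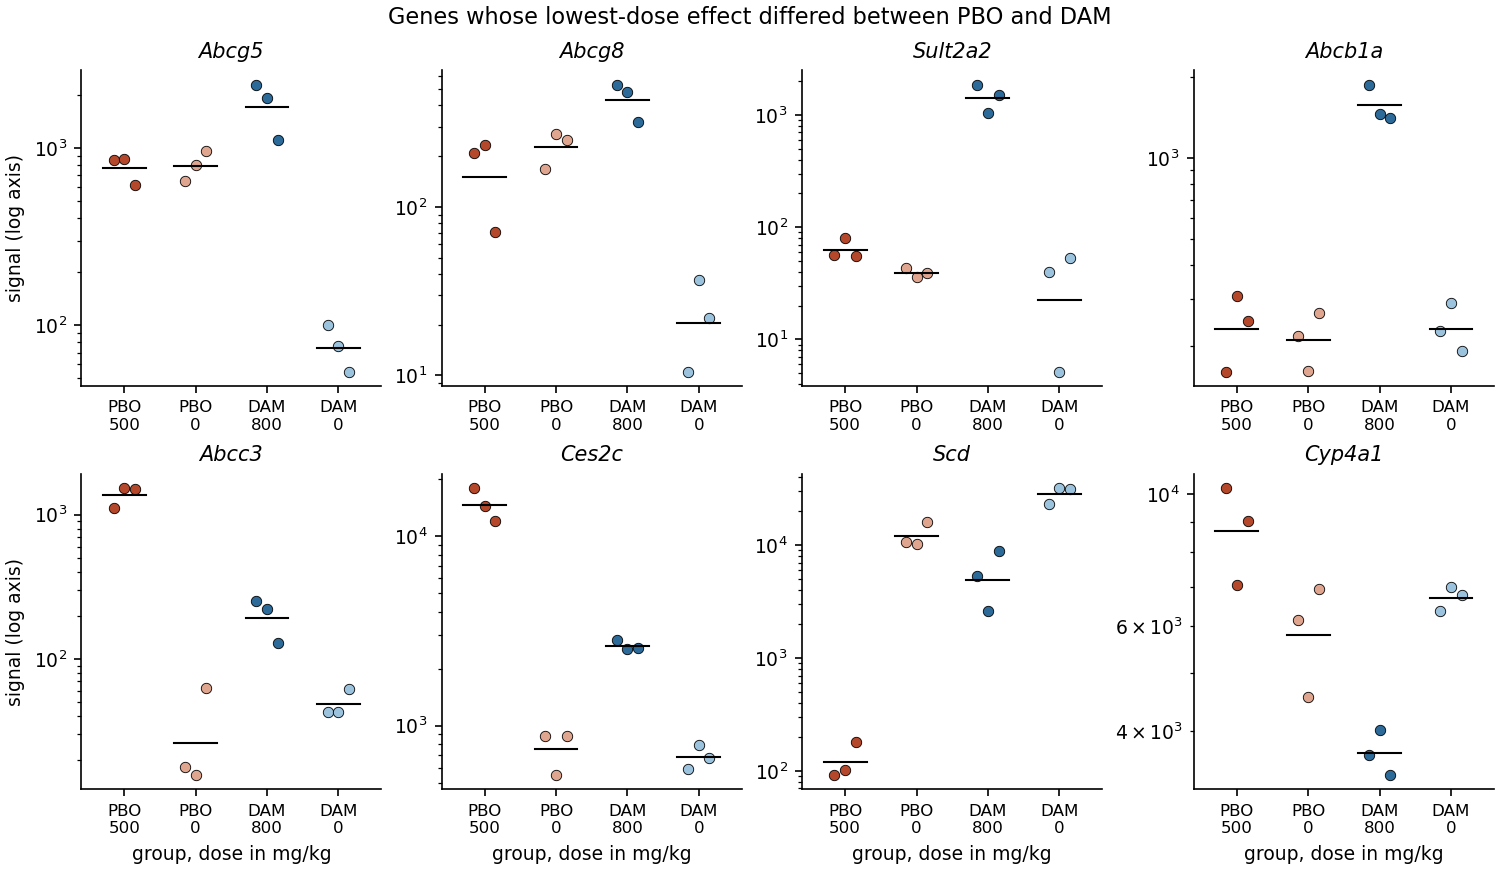
Signal of each array (points, log axis) and geometric mean (line) of 8 genes with a called difference, in the PBO 500, PBO 0, DAM 800 and DAM 0 mg/kg groups, 3 arrays each. Abcg5, Abcg8, Sult2a2 and Abcb1a differ between the DAM groups and are close between the PBO groups, Abcc3, Ces2c and Scd differ in both studies and more with PBO, and Cyp4a1 goes opposite ways.

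A larger PBO effect in the same direction marked an exporter, an esterase and a desaturase. Abcc3 carries glucuronides and other conjugates from the hepatocyte to the blood. Its signals were 1109, 1525 and 1509 at PBO 500 mg/kg and 18.0, 15.7 and 63.3 at PBO 0 mg/kg. They were 251, 223 and 129 at DAM 800 mg/kg and 43.3, 42.6 and 61.7 at DAM 0 mg/kg, so neither pair of groups overlapped. The difference was 3.28 ± 0.46 (adjusted p = 0.00644), with a PBO effect of 4.97 ± 0.33 (adjusted p = 6.76e-07) and a DAM effect of 1.70 ± 0.33 (adjusted p = 0.0133). The call of the DAM effect was lost without replicate 1 or 2 of DAM 800 mg/kg or of DAM 0 mg/kg (adjusted p up to 0.0731).

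Ces2c, a carboxylesterase that splits ester drugs, had signals of 17986, 14399 and 12095 at PBO 500 mg/kg and 878, 548 and 885 at PBO 0 mg/kg. It had 2822, 2540 and 2556 at DAM 800 mg/kg and 591, 791 and 671 at DAM 0 mg/kg. Dosed arrays lay above undosed arrays in both studies. The difference was 2.32 ± 0.25 (adjusted p = 9.68e-04), with a PBO effect of 4.25 ± 0.18 and a DAM effect of 1.93 ± 0.18 (adjusted p = 6.26e-09 and 2.96e-05).

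Scd, the stearoyl-CoA desaturase that makes monounsaturated fatty acids, had signals of 91.8, 103 and 179 at PBO 500 mg/kg and 10752, 10273 and 16046 at PBO 0 mg/kg. It had 5287, 2615 and 8860 at DAM 800 mg/kg and 23242, 32042 and 31514 at DAM 0 mg/kg. Dosed arrays lay below undosed arrays in both studies, by the widest margin with PBO. The difference was -3.96 ± 0.48 (adjusted p = 0.00270), with a PBO effect of -6.48 ± 0.34 (adjusted p = 7.51e-08) and a DAM effect of -2.52 ± 0.34 (adjusted p = 9.40e-04).

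Me1, the malic enzyme that supplies NADPH, and Mgst2, a microsomal glutathione S-transferase, rose with both compounds and further with PBO. The Me1 difference was 0.97 ± 0.13 (adjusted p = 0.00449), with effects of 1.66 ± 0.09 for PBO and 0.69 ± 0.09 for DAM, and its second probe set also had a called difference, of 1.32 ± 0.21. The Mgst2 difference was 0.67 ± 0.10 (adjusted p = 0.0112), with effects of 1.15 ± 0.07 and 0.48 ± 0.07. The smallest adjusted p in the whole difference, 3.05e-07, belonged to 2 probe sets that have no single gene symbol. Probe set 1371076_at, annotated to several genes, averaged a PBO effect of 3.62 ± 0.09 and a DAM effect of 1.27 ± 0.09. Probe set 1379888_at, with no symbol, had signals of 2564, 3186 and 3569 at PBO 500 mg/kg and 4519, 4200 and 4366 at PBO 0 mg/kg. It had 73.1, 77.1 and 66.8 at DAM 800 mg/kg and 1393, 1411 and 1066 at DAM 0 mg/kg. It fell with both compounds, with a PBO effect of -0.50 ± 0.13 and a DAM effect of -3.88 ± 0.13.

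The third kind, with a called PBO effect and an uncalled or opposite DAM effect, included genes of fatty acid oxidation. Of 34 PPARalpha targets tested, 14 rose and 1 fell with PBO, against 2.65% and 2.25% of all genes, while 1 rose and 3 fell with DAM, against 1.6% and 0.957%. Their median effect was 0.35 with PBO and 0.06 with DAM, and their median difference was 0.28, against -0.04, -0.01 and -0.02 over all genes. The difference was positive for 27 of the 34 members and called as positive for 4: Cyp4a1, Ehhadh, Pex11a and Decr2. With each study's own spread, 8 members rose and 0 fell with PBO, against 1.14% and 0.752% of genes, and 0 rose and 3 fell with DAM, against 2.55% and 1.81%.

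Cyp4a1, the fatty acid omega-hydroxylase that is a standard marker of PPARalpha in rat liver, had signals of 10241, 7040 and 9030 at PBO 500 mg/kg and 6151, 4571 and 6927 at PBO 0 mg/kg. It had 3645, 4026 and 3375 at DAM 800 mg/kg and 6362, 6993 and 6762 at DAM 0 mg/kg. Every dosed array was above its undosed group with PBO and below it with DAM. The difference was 1.44 ± 0.21 (adjusted p = 0.00723), with a PBO effect of 0.58 ± 0.15 (adjusted p = 0.0401) and a DAM effect of -0.86 ± 0.15 (adjusted p = 0.00540). The call of the PBO effect held with 1 array left out only without PBO 0 mg/kg replicate 3 or PBO 500 mg/kg replicate 2, and was lost otherwise (adjusted p up to 0.136).

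Ehhadh, the bifunctional enzyme of peroxisomal beta-oxidation, had signals of 9508, 8876 and 11294 at PBO 500 mg/kg and 5685, 3717 and 5094 at PBO 0 mg/kg. It had 7299, 5746 and 5932 at DAM 800 mg/kg and 7563, 10138 and 9044 at DAM 0 mg/kg. PBO-dosed arrays were all above and DAM-dosed arrays all below their undosed groups. The difference was 1.54 ± 0.22 (adjusted p = 0.00644), with a PBO effect of 1.05 ± 0.15 (adjusted p = 0.00129) and a DAM effect of -0.49 ± 0.15 that was not called (adjusted p = 0.144).

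Pex11a, which drives peroxisome division, and Decr2, a peroxisomal dienoyl-CoA reductase, rose with PBO and had no called DAM effect. The Pex11a difference was 1.08 ± 0.18 (adjusted p = 0.0213), with a PBO effect of 1.00 ± 0.13 and a DAM effect of -0.08 ± 0.13. Its call was lost without any of the 3 DAM 0 mg/kg arrays, DAM 800 mg/kg replicates 1 or 2, or PBO 500 mg/kg replicate 1 (adjusted p up to 0.0753), and its second probe set gave a difference of 1.26. The Decr2 difference was 0.72 ± 0.11 (adjusted p = 0.0120), which was lost without DAM 800 mg/kg replicate 3 (adjusted p = 0.0544). Further targets rose with PBO with no called difference. These include the pantetheinase Vnn1 with a PBO effect of 1.60 ± 0.20 (adjusted p = 3.43e-04) and a DAM effect of 0.16 ± 0.20, and the mitochondrial isomerase Eci1 with 1.08 ± 0.12 (adjusted p = 1.61e-04) and 0.27 ± 0.12. On the DAM side, the lipase inhibitor Angptl4 fell by 1.39 ± 0.34 (adjusted p = 0.0476), and the pyruvate dehydrogenase kinase Pdk4 fell by 0.94 ± 0.20 (adjusted p = 0.0243). The Pdk4 call was lost without any DAM 0 mg/kg array or DAM 800 mg/kg replicates 1 or 2 (adjusted p up to 0.109). The Angptl4 call was lost without any array of either DAM group, PBO 0 mg/kg replicate 1 or PBO 500 mg/kg replicate 2 (adjusted p up to 0.204).

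**Figure D3:**
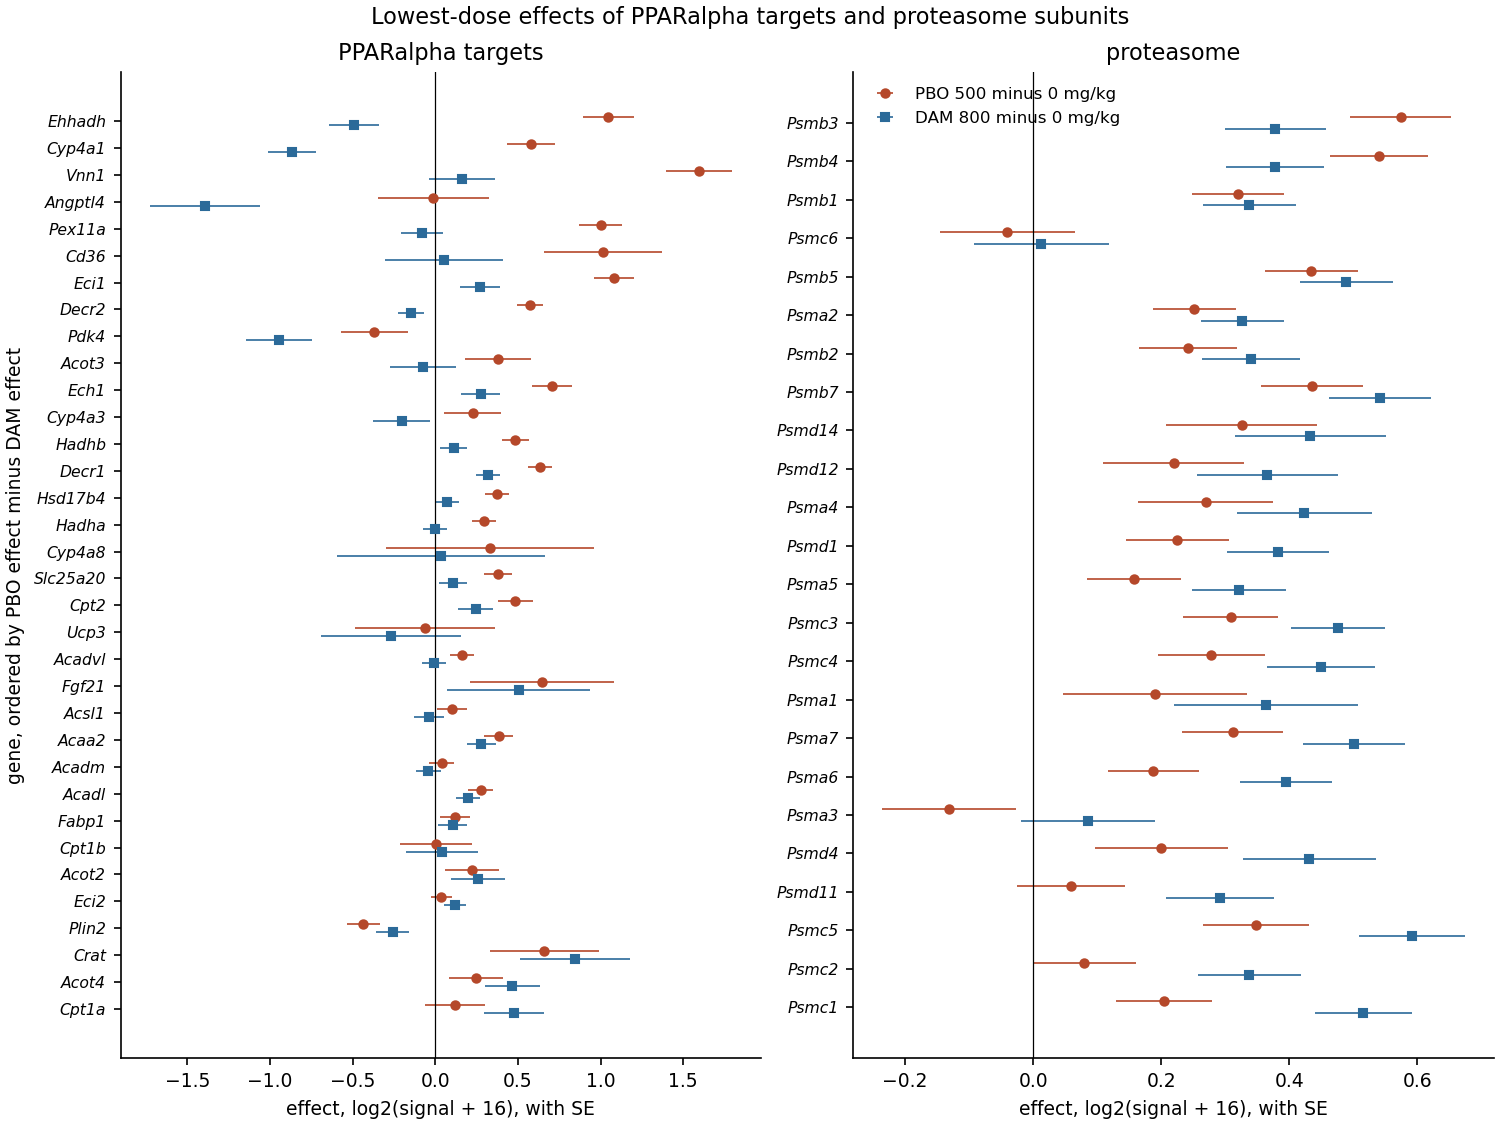
Effects with standard errors on the log2(signal + 16) scale of 34 PPARalpha targets (left) and 24 proteasome subunits (right), PBO as circles and DAM as squares, each list ordered by the difference. In the left panel most PBO values lie right of the DAM values, widest for Ehhadh and Cyp4a1, and in the right panel all values but the PBO values of Psmc6 and Psma3 are above 0, with DAM further right in 22 of 24 subunits.

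Fatty acid uptake and other metabolic genes belonged to this kind too. Slc27a4, a fatty acid transport protein with acyl-CoA synthetase activity, had signals of 290.2, 206 and 243 at PBO 500 mg/kg and 64.8, 80.9 and 64.8 at PBO 0 mg/kg. It had 462, 612 and 581 at DAM 800 mg/kg and 613, 451 and 665 at DAM 0 mg/kg, where the groups overlapped. Its difference was 1.65 ± 0.26 (adjusted p = 0.0137), lost without DAM 0 mg/kg replicate 1 or 3 (adjusted p up to 0.0569). Slc37a1, a sugar phosphate carrier, had a difference of 2.10 ± 0.37 (adjusted p = 0.0293), with a PBO effect of 1.71 ± 0.26 and a DAM effect of -0.39 ± 0.26. That call held only without DAM 0 mg/kg replicate 1 or PBO 0 mg/kg replicates 2 or 3 (adjusted p up to 0.106 otherwise). Creg1, a secreted glycoprotein, had 11899, 13023 and 12401 at PBO 500 mg/kg and 5955, 6098 and 6362 at PBO 0 mg/kg. It had 9180, 10476 and 11842 at DAM 800 mg/kg and 9117, 11148 and 8983 at DAM 0 mg/kg. Its PBO groups were far apart and its DAM groups overlapped, with a difference of 0.91 ± 0.14 (adjusted p = 0.0121). Adss1, an adenylosuccinate synthase, had a difference of 0.96 ± 0.16 (adjusted p = 0.0183), lost without DAM 0 mg/kg replicates 2 or 3, DAM 800 mg/kg replicates 2 or 3 or PBO 0 mg/kg replicate 3 (adjusted p up to 0.0692).

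Called effects in opposite directions were rare. Among genes they were Cyp4a1 and Abcb4, 0.0188% of those tested. Abcb4 encodes the flippase that puts phosphatidylcholine into bile. It had signals of 1156, 1300 and 1182 at PBO 500 mg/kg and 2000, 1587 and 2104 at PBO 0 mg/kg. It had 2058, 2256 and 2036 at DAM 800 mg/kg and 1454, 1522 and 1355 at DAM 0 mg/kg. Dosed arrays were all below undosed arrays with PBO and all above them with DAM. The difference was -1.18 ± 0.15 (adjusted p = 0.00330), with a PBO effect of -0.63 ± 0.11 (adjusted p = 0.00402) and a DAM effect of 0.55 ± 0.11 (adjusted p = 0.0141). The call of the DAM effect was lost without DAM 0 mg/kg replicate 1 or 3 or DAM 800 mg/kg replicate 2 (adjusted p up to 0.0773). H1f2, a linker histone, had a difference of -1.19 ± 0.20 (adjusted p = 0.0204), with a PBO effect of -0.63 ± 0.14 and a DAM effect of 0.57 ± 0.14 that was not called (adjusted p = 0.0554). The H1f2 difference was lost without any DAM 800 mg/kg array, DAM 0 mg/kg replicate 3 or PBO 500 mg/kg replicates 2 or 3 (adjusted p up to 0.0680). Its PBO call was lost without replicate 1 or 2 of PBO 0 mg/kg or replicate 2 or 3 of PBO 500 mg/kg (adjusted p up to 0.0884).

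A further 7 genes with a called difference fell outside the naming rule and are given here after their values were seen. App, Gcdh and Apon had positive differences of 0.60, 0.54 and 0.75. Hmgn3, Tubb4b and Ptp4a1 had negative differences of -0.82, -0.88 and -0.79. Hmgn3 rose with both compounds and further with DAM, with a PBO effect of 0.58 and a DAM effect of 1.40. Abhd11 had a called difference of 3.15 at a probe set that was not its brightest, with a PBO effect of 1.55 and a DAM effect of -1.60.

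Several enzymes that handle foreign compounds rose with both compounds, among them Gsta3, Aldh1a1, Sult2a6 and Ggt1. Gsta3, an alpha-class glutathione S-transferase that conjugates electrophiles, had signals of 5137, 7642 and 7550 at PBO 500 mg/kg and 298, 257 and 244 at PBO 0 mg/kg. It had 1634, 1263 and 1161 at DAM 800 mg/kg and 42.9, 66.4 and 103 at DAM 0 mg/kg. No dosed array overlapped its undosed group. The effects were 4.57 ± 0.22 with PBO and 4.03 ± 0.22 with DAM (adjusted p = 3.94e-08 and 2.24e-07). The difference was 0.55 ± 0.32, with a 95% interval of -0.13 to 1.22 and an adjusted p of 0.695.

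Aldh1a1, a retinaldehyde dehydrogenase and a CAR target, had 19353, 20170 and 28734 at PBO 500 mg/kg and 1714, 1875 and 2454 at PBO 0 mg/kg. It had 14740, 13517 and 13229 at DAM 800 mg/kg and 1319, 2416 and 2859 at DAM 0 mg/kg. Again the groups were separate in both studies. The effects were 3.48 ± 0.23 with PBO and 2.72 ± 0.23 with DAM (adjusted p = 6.76e-07 and 1.52e-05), and the difference of 0.77 ± 0.32 was not called (adjusted p = 0.571).

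Ggt1, the enzyme that opens extracellular glutathione breakdown and a classical marker of altered hepatic foci in rats, rose by 2.68 ± 0.21 with PBO and 2.43 ± 0.21 with DAM (adjusted p = 3.86e-06 and 1.85e-05). Its signals were 847, 900.0 and 613 at PBO 500 mg/kg and 86.1, 92.8 and 154 at PBO 0 mg/kg. They were 495, 408 and 498 at DAM 800 mg/kg and 73.1, 83.8 and 64.7 at DAM 0 mg/kg. Dosed and undosed arrays were apart in both studies. Of 10 tested markers of altered hepatic foci, 6 rose with PBO, 5 rose with DAM, and 5 rose with both: Ggt1, Akr7a3, Gpx2, Abcc3 and Ephx1. The shares of all genes were 2.65% with PBO, 1.6% with DAM and 0.844% with both. Their median effects were 1.20 with PBO and 0.84 with DAM. All 10 markers but Ggt1 and Afp are also in the list of NRF2 targets. Abcc3 and Ephx1 are in that of CAR and PXR targets too, so the counts of these lists are not separate findings. With each study's own spread, 4 of the 10 rose with PBO (1.14% of genes) and 6 with DAM (2.55%), the 4 among the 6. Gstp1, the most used of these markers, had 1214, 835 and 1616 at PBO 500 mg/kg and 804, 780 and 858 at PBO 0 mg/kg, and its PBO effect of 0.53 ± 0.18 was not called (adjusted p = 0.130). Its DAM effect was 0.11 ± 0.18 (adjusted p = 0.908).

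Cyp1a1, the AhR-induced P450, varied widely among dosed animals. It had 331, 207 and 92.8 at PBO 500 mg/kg and 3.96, 20.5 and 12.0 at PBO 0 mg/kg. It had 541, 2077 and 325 at DAM 800 mg/kg and 14.8, 58.6 and 41.1 at DAM 0 mg/kg. The groups did not overlap, and the effects were 2.89 ± 0.58 with PBO (adjusted p = 0.0122) and 3.85 ± 0.58 with DAM (adjusted p = 0.00221). With the PBO study's own 6 arrays Cyp1a1 fell below the filter on low signal. Cyp1a2, also an AhR target, rose with PBO by 0.73 ± 0.13 (adjusted p = 0.00443) and had a DAM effect of -0.09 ± 0.13. The Cyp1a2 difference of 0.83 ± 0.18 was not called (adjusted p = 0.109).

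Of 19 CAR and PXR targets tested, 11 rose with PBO (2.65% of all genes) and 11 with DAM (1.6%), 10 of them with both (0.844%), and 0 fell. With each study's own spread, 9 rose with PBO (1.14% of genes) and 14 with DAM (2.55%), the 9 among the 14. Median effects were 0.64 with PBO and 0.86 with DAM. Apart from Abcc3, Ces2c and Abcb1a, no tested member had a called difference. The P450 gene Cyp2b1 was not among the genes tested, which are limited to probe sets with 1 symbol. Probe sets with several symbols, such as 1371076_at, were tested but assigned to no gene, so a Cyp2b1 signal among them would not be counted here. The glucuronosyltransferase Ugt2b1 rose with both, with effects of 3.12 ± 0.23 and 1.60 ± 0.23 and a difference of 1.52 ± 0.32 (adjusted p = 0.0976). The P450 Cyp3a23-3a1 rose by 0.82 ± 0.09 with PBO and 0.54 ± 0.09 with DAM, from high undosed signals. The microsomal epoxide hydrolase Ephx1 rose by 1.26 with PBO and 0.86 with DAM, and the uptake transporter Slco1a4 by 0.64 and 0.86.

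Of 27 NRF2 targets tested, 13 rose with PBO (2.65% of all genes) and 10 with DAM (1.6%), 10 of them with both (0.844%), and 0 fell. With each study's own spread, 10 rose with PBO (1.14% of genes) and 15 with DAM (2.55%), 9 of them with both. Median effects were 0.57 with PBO and 0.45 with DAM, and 2 members, Abcc3 and Me1, had called differences. Gpx2, an epithelial glutathione peroxidase, had 389, 1228 and 284 at PBO 500 mg/kg and 64.3, 155 and 152 at PBO 0 mg/kg. It had 685, 1069 and 847 at DAM 800 mg/kg and 71.2, 42.1 and 85.4 at DAM 0 mg/kg. The groups were separate in both studies, with 1 PBO 500 mg/kg array far above the other two. The Gpx2 effects were 2.01 ± 0.43 with PBO (adjusted p = 0.0187) and 3.44 ± 0.43 with DAM (adjusted p = 5.73e-04). The PBO call was lost without PBO 0 mg/kg replicate 1 (adjusted p = 0.0702) and with the PBO study's own spread (adjusted p = 0.0884). Hmox1, an NRF2 target that breaks down haem, had effects of -0.20 with PBO and 0.24 with DAM, neither called.

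NRF2 binds antioxidant response elements, and 90-base windows before the starts of 4 genes that rose with both compounds are shown for that reason. Only genes that hold the core could be shown, so its presence in all 4 is no result. They come from RefSeq (GRCr8), and capitals mark the core TGACNNNGC or its reverse complement.
Gpx2 (chr6:101230034-101230123, minus strand): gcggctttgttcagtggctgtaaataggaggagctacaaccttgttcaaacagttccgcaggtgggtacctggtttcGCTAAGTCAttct
Psmb5 (chr15:32047390-32047479, minus strand): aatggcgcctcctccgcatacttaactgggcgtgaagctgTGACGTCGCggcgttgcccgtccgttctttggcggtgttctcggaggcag
Gsta3 (chr9:31154899-31154988, plus strand): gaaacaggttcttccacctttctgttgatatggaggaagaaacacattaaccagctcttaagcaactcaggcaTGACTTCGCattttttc
Me1 (chr8:96540362-96540451, minus strand): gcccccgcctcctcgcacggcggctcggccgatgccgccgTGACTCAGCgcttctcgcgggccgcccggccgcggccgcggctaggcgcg
The core lies 13 bases before the start in Gpx2, 60 in Psmb5, 17 in Gsta3 and 167 in Me1. On both strands of the 250 bases before the start it was held by 13 of the 73 genes higher in both effects that have a promoter entry (17.8%), and by 4 of 36 genes lower in both (11.1%). It was held by 12.6% of the promoters of all genes tested and 10.2% of all 27457 promoters. These shares are descriptions, and a match is not evidence of binding.

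Of 20 glutathione S-transferases tested, 10 rose with PBO (2.65% of all genes) and 5 with DAM (1.6%), the 5 among the 10 (0.844%), and Gstm7 fell with DAM. The Gstm7 call was lost when arrays were scaled to a common median. The members with calls in both were Gsta3, Gstm1, Gstm2, Gstm4 and Mgst2. Gstm3 rose by 2.88 ± 0.29 with PBO (adjusted p = 5.38e-05) and had a DAM effect of 0.93 ± 0.29 that was not called (adjusted p = 0.144), while its difference of 1.95 ± 0.41 was not called either (adjusted p = 0.0899). Differences were positive for 19 of the 20 members and called for Mgst2 only. These genes are close paralogs, so probe sets may share signal among them.

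**Figure D4:**
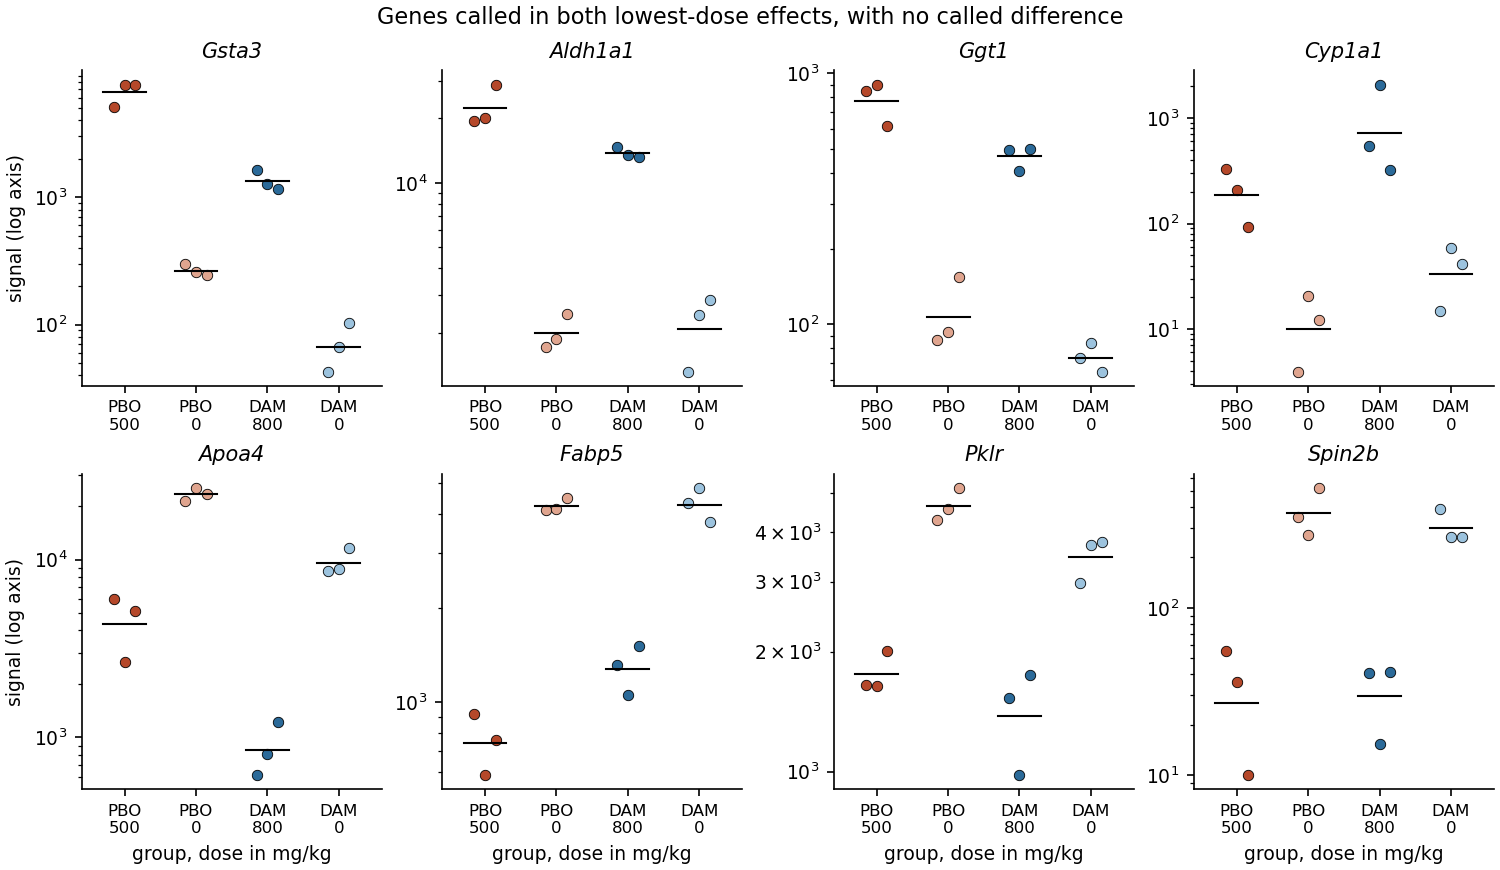
Signal of each array (points, log axis) and geometric mean (line) of 8 genes called in both effects with no called difference, in the PBO 500, PBO 0, DAM 800 and DAM 0 mg/kg groups, 3 arrays each. Gsta3, Aldh1a1, Ggt1 and Cyp1a1 are higher, and Apoa4, Fabp5, Pklr and Spin2b lower, on every dosed array than on the undosed arrays of the same study.

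Fabp5, Apoa4, Pklr and Srebf1, which serve lipid and sugar metabolism, fell with both compounds. Fabp5, a fatty acid binding protein, had 917, 587 and 758 at PBO 500 mg/kg and 4119, 4141 and 4485 at PBO 0 mg/kg. It had 1312, 1058 and 1519 at DAM 800 mg/kg and 4320, 4826 and 3757 at DAM 0 mg/kg. The groups were separate in both studies, with undosed levels close to each other. The effects were -2.49 ± 0.15 with PBO and -1.73 ± 0.15 with DAM (adjusted p = 4.17e-07 and 2.45e-05), with a difference of -0.77 ± 0.22 that was not called (adjusted p = 0.309).

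Apoa4, an apolipoprotein of triglyceride-rich particles, had 5978, 2672 and 5121 at PBO 500 mg/kg and 21420, 25254 and 23420 at PBO 0 mg/kg. It had 614, 808 and 1218 at DAM 800 mg/kg and 8589, 8844 and 11614 at DAM 0 mg/kg. Every dosed array lay below the undosed arrays of its study. The effects were -2.42 ± 0.26 with PBO (adjusted p = 1.15e-04) and -3.48 ± 0.26 with DAM (adjusted p = 4.34e-06).

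Pklr, the liver pyruvate kinase, fell by 1.40 ± 0.17 with PBO and 1.32 ± 0.17 with DAM (adjusted p = 3.31e-04 and 7.64e-04). Srebf1, the transcription factor that drives lipogenic genes, fell by 0.72 ± 0.10 with PBO and 1.03 ± 0.10 with DAM (adjusted p = 8.09e-04 and 5.23e-05). Of 19 genes of fatty acid synthesis tested, 6 fell and 1 rose with PBO, 8 fell and 1 rose with DAM, and 4 fell with both: Scd, Srebf1, Thrsp and Pklr. Of all genes, 2.25% fell with PBO, 0.957% with DAM and 0.385% with both. The member that rose with both was Me1, which is also an NRF2 target. Fasn, Acaca and Acly, enzymes of fatty acid synthesis, fell with DAM by 1.40, 0.83 and 0.91, where Fasn and Acaca were chosen after their values were seen. The PBO effects of these 3 genes, -0.74, -0.48 and -0.15, were not called. None of those 3 had a called difference (adjusted p = 0.595, 0.680 and 0.109).

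Other falls shared by both compounds were large. Spin2b, of the spindlin family, had 55.1, 36.1 and 10.02 at PBO 500 mg/kg and 350.0, 274 and 519 at PBO 0 mg/kg. It had 40.6, 15.4 and 41.3 at DAM 800 mg/kg and 387, 263 and 266 at DAM 0 mg/kg. The levels were alike in both studies, and the effects were -3.07 ± 0.37 and -2.76 ± 0.37 (adjusted p = 2.62e-04 and 9.01e-04). Slc6a6, the taurine transporter, had effects of -3.36 ± 0.37 with PBO and -2.05 ± 0.37 with DAM (adjusted p = 1.41e-04 and 0.00892). The DAM call of Slc6a6 was lost without DAM 800 mg/kg replicate 2 (adjusted p = 0.0529). Stac3, an adaptor known from muscle, had -1.83 ± 0.15 and -1.17 ± 0.15 (adjusted p = 7.08e-06 and 7.41e-04).

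Calls among genes of amino acid breakdown were all falls. Of 22 genes of gluconeogenesis and amino acid breakdown tested, 9 fell with PBO (2.25% of all genes) and 4 with DAM (0.957%), 3 of them with both (0.385%), namely Sds, Hal and Agxt, and 0 rose. With each study's own spread 7 fell with PBO (0.752% of genes) and 7 with DAM (1.81%), and with median scaling 6 and 3. Median effects were -0.32 with PBO and -0.28 with DAM. Sds, serine dehydratase, had 218, 188 and 28.9 at PBO 500 mg/kg and 686, 806 and 960.4 at PBO 0 mg/kg. It had 67.0, 418 and 135 at DAM 800 mg/kg and 1080, 1121 and 2055 at DAM 0 mg/kg. The groups were separate but dosed arrays were widely spread, with effects of -2.68 ± 0.59 and -2.96 ± 0.59 (adjusted p = 0.0199 and 0.0150). The PBO call of Sds was lost without PBO 0 mg/kg replicate 2 or 3, and the DAM call without DAM 0 mg/kg replicate 3 or DAM 800 mg/kg replicates 1 or 3 (adjusted p up to 0.0762). The DAM call of Agxt, an effect of -0.40 ± 0.10, was lost in 8 of the 12 cases of 1 array left out (adjusted p up to 0.195), namely without any DAM 0 mg/kg array, DAM 800 mg/kg replicates 1 or 3, PBO 0 mg/kg replicates 1 or 3 or PBO 500 mg/kg replicate 2. Hal, histidine ammonia-lyase, fell by 0.92 ± 0.16 with PBO and 1.09 ± 0.16 with DAM (adjusted p = 0.00403 and 0.00167). Prodh, proline dehydrogenase, fell by 1.17 ± 0.14 with PBO (adjusted p = 2.28e-04) and had a DAM effect of -0.41 ± 0.14 (adjusted p = 0.180). Gldc, of the glycine cleavage system, fell by 0.79 ± 0.14 with DAM (adjusted p = 0.00583) and had a PBO effect of -0.08 ± 0.14.

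The proteasome, which degrades tagged proteins and whose subunit genes NRF2 can raise, had small effects, and all that were called were rises. Of 24 subunits tested, 9 rose with PBO (2.65% of all genes) and 17 with DAM (1.6%), the 9 among the 17 (0.844%), and 0 fell. Median effects were 0.25 with PBO and 0.38 with DAM, and differences were negative for 22 of 24 members, with a median of -0.16 and none called. With each study's own spread the counts were 4 with PBO (1.14% of genes) and 20 with DAM (2.55%). Psmb5, a catalytic subunit, had 9349, 9616 and 8583 at PBO 500 mg/kg and 6662, 6870 and 6822 at PBO 0 mg/kg. It had 8222, 8511 and 9184 at DAM 800 mg/kg and 5908, 6504 and 6038 at DAM 0 mg/kg. The effects of 0.43 ± 0.07 and 0.49 ± 0.07 were alike in size (adjusted p = 0.00350 and 0.00201).

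Calls among genes of cholesterol synthesis and uptake depended on the spread used. Of 20 members tested, 2 rose with PBO (2.65% of all genes) and 5 with DAM (1.6%), 1 (Cyp51) with both (0.844%), and median effects were 0.46 with PBO and 0.51 with DAM. With each study's own spread 0 rose with PBO (1.14% of genes) and 10 with DAM (2.55%). Sqle, squalene epoxidase, had a PBO effect of 0.85 ± 0.27 (adjusted p = 0.0980) and rose with DAM by 1.93 ± 0.27 (adjusted p = 0.00133). Idi1, an isomerase of the isoprenoid pathway, had a PBO effect of 0.73 ± 0.28 (adjusted p = 0.171) and rose with DAM by 1.61 ± 0.28 (adjusted p = 0.00592). No difference in the list was called.

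Of 36 cell cycle genes tested, 5 fell with PBO (Cdkn3, Kif20a, Mcm6, Hmmr and Cdca3) and 0 with DAM, and none rose. Of all genes, 2.25% fell with PBO and 0.957% with DAM. Median effects were -0.79 with PBO and -0.17 with DAM, against -0.04 and -0.01 over all genes, and no difference was called. Cdkn3, a cyclin-dependent kinase phosphatase, had 77.3, 23.3 and 8.31 at PBO 500 mg/kg and 260.1, 298 and 369 at PBO 0 mg/kg. It had 78.6, 155 and 94.8 at DAM 800 mg/kg and 87.5, 367 and 172 at DAM 0 mg/kg, where the groups overlapped. Cdkn3 fell by 2.85 ± 0.48 with PBO (adjusted p = 0.00378) and had a DAM effect of -0.68 ± 0.48. Kif20a, a mitotic kinesin, fell by 2.16 ± 0.37 (adjusted p = 0.00437) and had a DAM effect of -0.41 ± 0.37. The difference was -2.16 ± 0.68 for Cdkn3 (adjusted p = 0.374) and -1.74 ± 0.53 for Kif20a (adjusted p = 0.353).

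The serine synthesis genes Psat1 and Phgdh rose with DAM, while Psph, the last enzyme of that pathway, was not called (0.53, adjusted p = 0.179). Psat1, phosphoserine aminotransferase, had 250.3, 194 and 316 at PBO 500 mg/kg and 209.8, 123 and 149.6 at PBO 0 mg/kg, where the groups overlapped. It had 754, 2342 and 1791 at DAM 800 mg/kg and 262, 362 and 196 at DAM 0 mg/kg, with no overlap. Its DAM effect was 2.40 ± 0.34 (adjusted p = 0.00159), its PBO effect 0.61 ± 0.34 (adjusted p = 0.371) and its difference -1.79 ± 0.48 (adjusted p = 0.273). Phgdh, the first enzyme of the pathway, had a DAM effect of 3.21 ± 0.67 (adjusted p = 0.0217), which was lost without DAM 0 mg/kg replicates 1 or 3 or DAM 800 mg/kg replicates 2 or 3 (adjusted p up to 0.0951). Of the 13 tested genes in the list of ATF4 targets and serine synthesis, Psat1 and Phgdh were the only calls, and 1.6% of all genes rose with DAM.

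**Figure D5:**
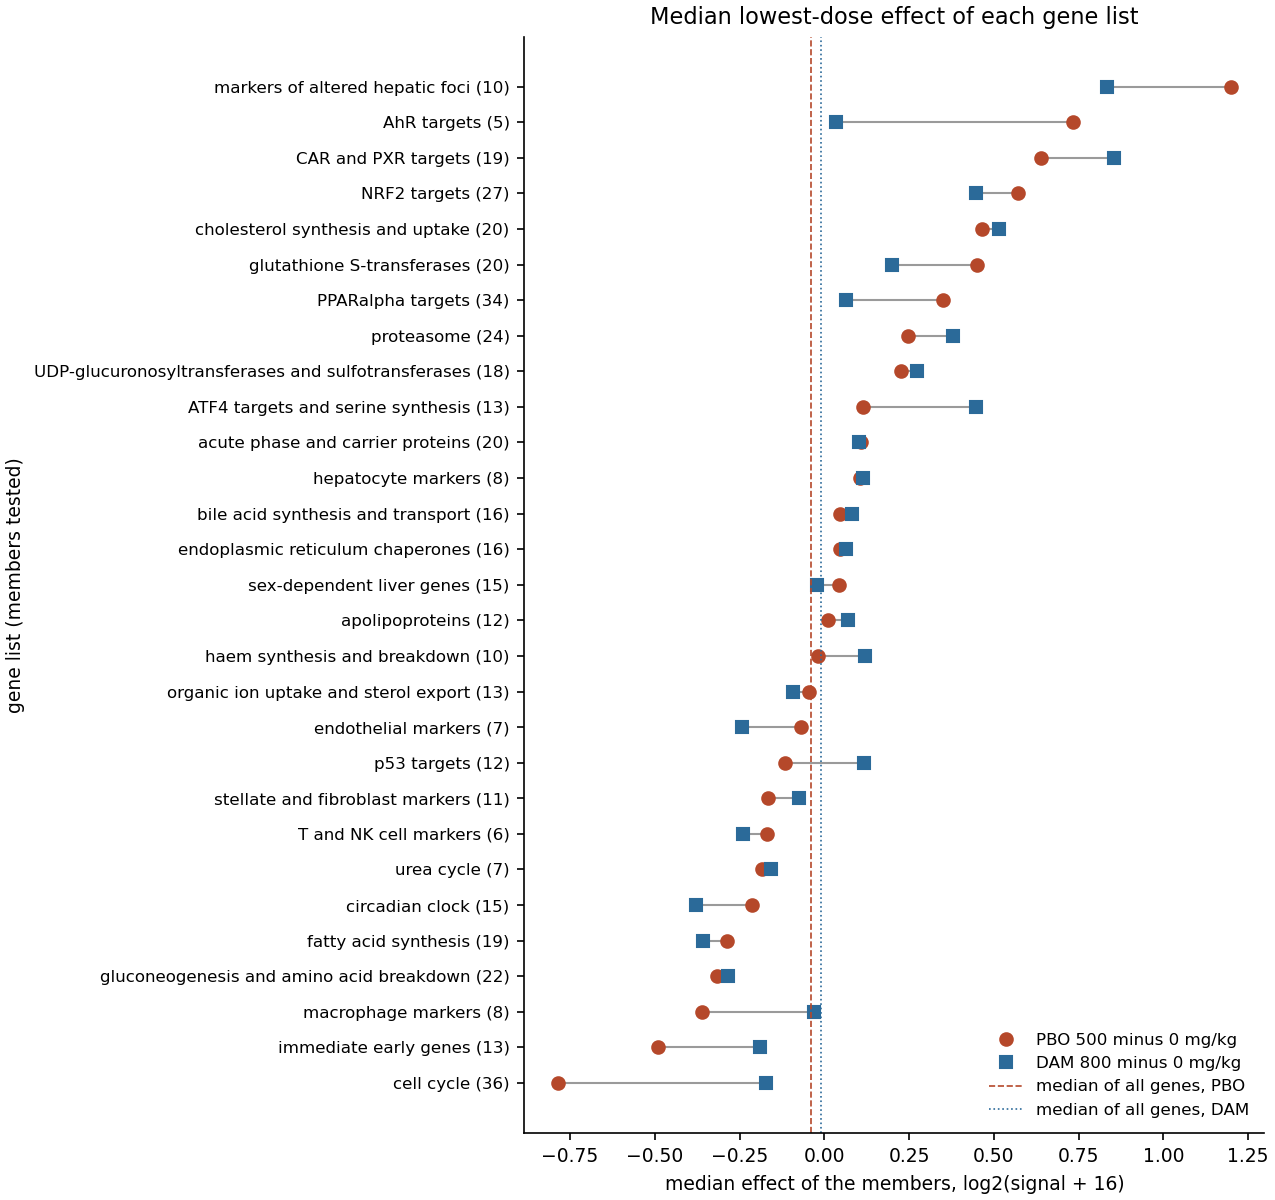
Median effect on the log2(signal + 16) scale of each gene list with at least 5 members tested, PBO as circles and DAM as squares, with the medians of all genes as dashed and dotted lines. Markers of altered hepatic foci at 1.20 and 0.84 and CAR and PXR targets at 0.64 and 0.86 are high with both compounds, PPARalpha targets at 0.35 and 0.06 are higher with PBO, and cell cycle genes at -0.79 have the lowest PBO median. Lists share genes, and all foci markers but Ggt1 and Afp are also NRF2 targets.

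In each marker list of another liver cell type at most 1 gene was called. Of all genes, 2.65% rose and 2.25% fell with PBO, 1.6% rose and 0.957% fell with DAM, and 0.844% rose with both. In lists this small, 1 call is not read as a result about a cell type. Of the marker lists, Cd68 of 8 macrophage markers, Lox of 11 stellate and fibroblast markers and Hbb of 4 erythroid markers fell with PBO, and 0 of 7 endothelial, 6 T and NK cell, 1 B cell and 2 neutrophil markers were called in either study. Epcam, of 3 cholangiocyte markers, rose by 0.60 ± 0.14 with PBO (adjusted p = 0.0263) and by 0.86 ± 0.14 with DAM (adjusted p = 0.00359). The PBO call of Epcam was lost without any PBO 0 mg/kg array or PBO 500 mg/kg replicate 1 (adjusted p up to 0.0871). Of 8 hepatocyte markers, Hnf4a fell with PBO and Apoa1 rose with DAM. The PBO calls of Cd68, Hbb and Hnf4a were lost with median scaling. Of the 8 macrophage markers, 0 had a PBO effect above 0 and 1 a DAM effect above 0, with medians of -0.36 and -0.03. Their differences were all below 0 (median -0.35), and none was called. Summed macrophage marker signals were 12907 to 18923 at PBO 500 mg/kg and 17968 to 20605 at PBO 0 mg/kg, and 14161 to 24223 at DAM 800 mg/kg and 17454 to 18562 at DAM 0 mg/kg. Summed erythroid marker signals were 14143 to 17089 at PBO 500 mg/kg and 21717 to 23029 at PBO 0 mg/kg, with no overlap. They were 11920 to 13204 at DAM 800 mg/kg and 13019 to 17693 at DAM 0 mg/kg. Sums of many other gene lists were also apart between the PBO groups, and the sums were not tested. Hepatocyte marker sums were 272698 to 325831 at PBO 500 mg/kg and 244092 to 311432 at PBO 0 mg/kg, and 215357 to 239597 at DAM 800 mg/kg and 186893 to 225225 at DAM 0 mg/kg. The labelled tissue thus showed its defining markers on all arrays. The part of other cell types in the results was not tested.

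The undosed groups enter the difference, and their levels were not the same in both studies. Of the 28 genes with a called difference, 22 (78.6%) had an undosed gap between studies, PBO 0 minus DAM 0 mg/kg, of opposite sign to the difference, against 57.5% of all 10661 genes. In 12 of the 28 genes the gap between PBO 500 and DAM 800 mg/kg livers was smaller than the gap between the undosed groups. Slc27a4 had the widest such gap among genes with a positive difference, with -1.11 between dosed groups and -2.77 between undosed groups. Ehhadh had 0.64 between dosed and -0.89 between undosed groups, and Pex11a had 0.23 between dosed and -0.85 between undosed groups. Abcc3, Ces2c, Sult2a2 and Abcb1a had undosed gaps of -0.55, 0.14, 0.35 and -0.13. The undosed gap is itself a term of the difference with its sign turned, so opposite signs are favoured by the arithmetic, and their part beyond that was not tested.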

How the data were processed

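Liver RNA of male rats was measured with 1 array per sample. The authors deposited linear intensity values for each probe set, and the submitters' processing notes name MAS5, with no version in the sources used here. The labels describe the replicates as biological. Of 31099 probe sets, 57 controls were left out, 20826 had 1 gene symbol, 436 several and 9780 none, and 20758 symbols were checked through the Entrez identifier. Genes were named only from probe sets with 1 symbol and represented by the tested probe set of highest mean.

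Values were transformed as log2(signal + 16). Probe sets whose mean over the 12 arrays exceeded the 40th percentile were kept (18625). A limma fit (lmFit, eBayes with trend) gave a mean per group and a spread shared by the 4 groups, and all p-values of a contrast received the Benjamini-Hochberg adjustment. P-values measure the spread between these samples. R 4.3.3, limma 3.58.1, Python 3.11.15, scipy 1.17.1 and matplotlib 3.10.9 were used, and the fit was tested on simulated data.

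The rule for named genes took the 10 largest positive and 10 largest negative called differences with separate groups, the 12 largest shared effects each way, up to 8 opposite ones, up to 4 list members per test with the smallest p, and 32 fixed genes, of which 30 were tested. The 33 lists hold 527 genes. Members, lists and rule were chosen with earlier results of these data known. Alternatives were pseudocounts of 1 and 64, a filter at the 60th percentile or none, median scaling, quantile normalization, no trend, array weights, the replicate number as a block, other sets of arrays and each array left out. Same-numbered arrays deviated together with correlations of only -0.0109 to 0.0273 in the PBO study and -0.0647 to 0.0110 in the DAM study, so the numbers were not taken as pairs. The 3 arrays per group limit the precision, and arrays give no count-based depth.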

Additional observations from a re-analysis of the deposited data

Results flagged for a closer look

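The test of the difference between the studies' effects singled out 22 named genes, whose differences (PBO effect minus DAM effect, log2 units) are repeated here by size. Below the DAM effect lay Sult2a2 with -4.54, Abcg5 with -4.28, Abcg8 with -4.09 and Scd with -3.96. Abcb1a had -2.55, Fndc5 -1.72, Ablim3 -1.71, H1f2 -1.19, Abcb4 -1.18 and Blmh -0.97. Above the DAM effect lay Abcc3 with 3.28, Ces2c with 2.32, Slc37a1 with 2.10, Slc27a4 with 1.65 and Ehhadh with 1.54. Cyp4a1 had 1.44, Pex11a 1.08, Me1 0.97, Adss1 0.96, Creg1 0.91, Decr2 0.72 and Mgst2 0.67. Abcb1a, Abcg5 and Ces2c kept the call under every alternative tried, and Abcc3 under all but the filter at the 60th percentile, where it was not tested. Strain, route, duration, dose and preservation cannot be told apart from the compound in any of these.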

How the results depend on the processing

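No named gene with a called difference reversed its direction under any alternative. Against 43 calls, the difference had 14 with all 21 arrays, 22 without the trend and 22 to 51 with 1 array left out. Against 766, PBO had 360 with all 21 arrays, 490 with array weights, 318 without the trend, 89 with all arrays of its study alone, 269 with its 6 arrays and 514 to 751 with 1 array left out. Against 381, DAM had 177, 747, 161, 705 and 648 under the same settings and 195 to 444 with 1 array left out. Against 171, the calls in both were 75 with all 21 arrays, 64 without the trend, 58 with each study alone and 103 to 183 with 1 array left out. With the replicate number as a block, which the data did not bear out as a pairing, the difference had 32 calls, PBO 534, DAM 302 and both 135. With all arrays except PBO 1500 mg/kg replicate 3, a setting added after seeing the data, the counts were 40, 859, 445 and 186. The other settings stayed within 1.5 times of the main counts. Of the 22 named genes called in the difference, 14 lost the call with all 21 arrays, 9 without the trend and 6 with the block. The causes were not tested. With 3 arrays per group the median standard error of an effect was 0.19 log2 units.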

Other observations

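The higher doses of the series, which entered no test here, give levels for 3 genes with a called difference whose DAM effect was the larger. Sult2a2 averaged 63.99 ± 13.5 at PBO 500, 1481 ± 2329 at PBO 1000 and 2830 ± 2914 at PBO 1500 mg/kg (SD, n = 3 each), so animals at the higher doses differed widely. Abcb1a averaged 239 ± 73.9, 503 ± 108 and 989.6 ± 403 at those doses. Abcg5 averaged 777 ± 141, 991 ± 558 and 1099 ± 854. Gstm3, called with PBO and not with DAM 800 mg/kg, averaged 239.7 ± 55.5 at DAM 800 and 909 ± 79.6 at DAM 2000 mg/kg.

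Clock and immediate early genes, which follow time of day and handling, had median effects below 0 with both compounds and no calls with the pooled spread. With the DAM study's own spread, 1 clock gene rose and 3 fell with DAM, and 1 immediate early gene rose, while 2.55% of genes rose and 1.81% fell. Of 15 clock genes tested, the median effect was -0.21 with PBO and -0.38 with DAM. Their summed signals were 6678 to 7110 at PBO 500 mg/kg and 7568 to 8219 at PBO 0 mg/kg. They were 9786 to 10636 at DAM 800 mg/kg and 12728 to 15633 at DAM 0 mg/kg, without overlap in either study. Sums of other lists, such as those of fatty acid synthesis, amino acid breakdown and the proteasome, were also apart in both studies. Such sums follow the brightest members and were not tested. Of 13 immediate early genes, median effects were -0.49 with PBO and -0.19 with DAM. Lox, which cross-links collagen, had 254, 349 and 434 at PBO 500 mg/kg and 2038, 665 and 5914 at PBO 0 mg/kg, and the wide spread lay in the undosed animals. Its PBO call (-2.51, adjusted p = 0.0198) was lost without PBO 0 mg/kg replicate 1 or PBO 500 mg/kg replicates 1 or 2 (adjusted p up to 0.0629). Papss2, which makes the sulfate donor of sulfotransferases, fell by 0.45 with PBO and 0.43 with DAM, while Sult2a6 rose with both.

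The remaining gene lists are given by their calls. Of all genes, 2.65% rose and 2.25% fell with PBO, and 1.6% rose and 0.957% fell with DAM. With both, 0.844% rose and 0.385% fell. A list with 1 call is not read as a result about that list. Of 5 AhR targets, 3 rose with PBO and 1 with DAM. Of 18 glucuronosyltransferases, sulfotransferases and their suppliers, 5 rose and 1 fell with PBO, and 6 rose and 1 fell with DAM. Of 16 genes of bile acid synthesis and transport, 2 rose and 1 fell with PBO, and 2 rose with DAM. Of 13 genes of organic ion uptake and sterol export, 2 rose and 3 fell with PBO, and 4 rose and 1 fell with DAM. Of 15 sex-dependent liver genes, Cyp3a18 rose and Stac3 fell with both compounds, but with the PBO study's own spread 0 rose with PBO. Of 10 genes of haem synthesis and breakdown, Blvrb, a biliverdin reductase, rose with both. Of 12 apolipoproteins, Apoa4 and Apoc4 fell with PBO, and Apoa4 fell and Apoa1 rose with DAM. Of 20 acute phase and carrier proteins, Lbp rose and Igfals fell with PBO. Ass1, of 7 urea cycle genes, fell with PBO. Mdm2, of 12 p53 targets, and Herpud1, of 16 genes of endoplasmic reticulum chaperones, rose with DAM. The falls of Papss2, Ass1 and Igfals were not called with median scaling. With each study's own spread, 1 AhR target rose with PBO (1.14% of genes) and 2 with DAM (2.55%). In that setting 4 genes of bile acid synthesis and transport rose with DAM, and 4 sex-dependent genes fell with DAM (1.81%). Members named here from lists of few calls were chosen after their values were seen.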
